A study of Mus musculus with 20 samples.

Results

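Cytosolic ribosomal proteins are the protein parts of the ribosome that translates mRNA in the cytoplasm. They were taken here as every gene whose name on the arrays was Rpl or Rps followed by a number with or without 1 lower-case letter, together with Rplp0 to Rplp2 and Rpsa. That rule named 81 genes with 186 probes. A gene was analysed where the scanner software marked a probe as clearly brighter than its background in Cy5, the dye of the sample, on 10 or more of the 20 arrays. This left 80 genes with 177 probes, out of 15233 genes and 19206 probes that passed the same filter. Rpl10l, the testis-enriched copy of Rpl10, was the gene left out, as neither of its probes was well above background on any array. The 80 genes comprised 48 of the large subunit (Rpl) and 32 of the small subunit (Rps), and each had its brightest probe well above background on all 20 arrays.

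The samples were quadriceps muscles of male C57BL/6J mice, 10 whose mothers ate a high-fat diet (mHFD) and 10 whose mothers ate a low-fat one (mLFD). The dams were 8 weeks old at the start and ate their diet from 3 days before mating until weaning, with 40% of energy from fat in the mHFD group and 10% in the mLFD group. Protein supplied 23% of energy in both diets, and carbohydrate 37% and 67%. After weaning all pups were housed singly on the low-fat diet and were killed at 6 weeks of age after 2 h without food. Litters were set to 5 to 7 pups and at most 4 littermates were in a group, but the labels do not say which mice shared a dam. The p-values therefore treat littermates as separate samples.

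Each array carried the Cy5-labelled RNA of 1 mouse beside a Cy3-labelled pool of all samples, and values are log2 ratios of sample to pool. The arrays lay on 5 slides of 4, with mHFD mice always at places 1 and 3 of a slide and mLFD mice at places 2 and 4. Odd and even positions therefore cannot be told apart from the diets. Between 15506 and 23410 probes an array were well above background in Cy5, and the brightness factor with which the scanner software scaled Cy5 ran from 1.15 to 6.10. All 8 skeletal muscle fibre markers, among them Ckm, Acta1 and Myh4, were well above background on all 20 arrays. Of the 7 adipocyte markers measured, 7 lay lower in mHFD with a median difference of -0.35 and none reached an unadjusted p under 0.05. Their mean ran from -1.01 to 0.29 in mHFD and from -1.01 to 0.92 in mLFD. All 4 neutrophil markers measured lay lower in mHFD, with a median of -0.50, and S100a9 (-1.16, limma p = 0.0379) and S100a8 (-0.82, p = 0.0326) had an unadjusted p under 0.05. Their mean ran from -1.11 to 0.15 in mHFD and from -1.14 to 1.33 in mLFD. Of 6 tenocyte markers 5 lay lower, with a median of -0.11 and a mean from -0.32 to 0.17 in mHFD and from -0.27 to 0.081 in mLFD. At that level were also the tenocyte genes Tnmd (-0.15) and Fmod (-0.20), the endothelial Vwf (-0.25), the satellite cell gene Notch3 (-0.15) and the fibre genes Mylpf (-0.18) and Myh4 (0.19). None of these markers passed an adjusted p of 0.05, and their part in any result below was not tested.

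As background, a cytosolic ribosome holds a large subunit, which joins amino acids, and a small subunit, which reads the mRNA, and each protein is needed in about equal number. Most mRNAs of these proteins begin with a C followed by a run of pyrimidines, the terminal oligopyrimidine tract, through which growth signals by way of mTORC1 and Larp1 set their translation. Skeletal muscle also has ribosomal paralogues of its own, above all Rpl3l, a muscle-restricted form of Rpl3. The mRNAs are abundant in nearly every cell, and the genome carries many processed copies of them.

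The tract was looked for in the reference promoters, since it is the regulatory sequence that these genes are known to share. RefSeq sequences on build GRCm38.p6 were found for 59 of the 80 genes by symbol. A C followed by at least 4 bases that were each C or T, read on the strand of the gene, began exactly at the annotated start in 12 of the 59 genes, or 20.3%, against 2.53% of 27025 genes in the table. Within 5 bases on either side of the start it was found in 45.8% of the ribosomal protein genes, in 18.3% of all genes and in 22.4% of 67 mitochondrial ribosomal protein genes. The windows below hold 15 bases before and 15 from the start for genes whose values are described further on, with capitals for the tract where 1 was found.
Rps6 (chr4:86857353-86857382, minus strand): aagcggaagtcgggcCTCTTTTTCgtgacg
Rps18 (chr17:33955651-33955680, minus strand): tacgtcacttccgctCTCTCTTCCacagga
Rpl14 (chr9:120571502-120571531, plus strand): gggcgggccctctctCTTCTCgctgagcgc
Rps27 (chr3:90213634-90213663, minus strand): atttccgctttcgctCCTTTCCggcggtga
Rps27l (chr9:66946071-66946100, plus strand): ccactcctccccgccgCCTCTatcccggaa
Rpl11 (chr4:136053379-136053408, minus strand): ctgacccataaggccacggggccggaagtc
Rpl3l (chr17:24727811-24727840, plus strand): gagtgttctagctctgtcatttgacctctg
Rps4x (chrX:102189377-102189406, minus strand): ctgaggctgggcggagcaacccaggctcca
In Rps6 and Rps18 the tract was 9 bases long and in Rps27 it was 7 bases long, each from the annotated start. In Rps27l it was 5 bases long and lay 1 base further on. In Rpl11, Rpl3l and Rps4x no such run lay within 5 bases of the annotated start, which says only that these letters are not in that window. The 27 genes with a tract near the start had a median difference between the diets of 0.051 and the 32 without had one of 0.011, with 4 and 3 genes at an unadjusted p under 0.05, beside 7.21% of all genes.

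The probes that carried the values are 60 bases long and are given on build mm9, the one named in the scanner files. The 2 probes of the muscle form Rpl3l and of Rpl3 shown first lay over the same stretch of the paralogues. They overlapped by 27 bases, 20 of them identical (capitals), and differed at the other 7.
Rpl3l (chr17:24872413-24872681, plus strand, across an intron): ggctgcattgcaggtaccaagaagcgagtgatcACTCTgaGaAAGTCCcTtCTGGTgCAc
Rpl3 (chr15:79908489-79908772, minus strand, across an intron): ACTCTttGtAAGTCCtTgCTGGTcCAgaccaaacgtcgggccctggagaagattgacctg
Probes under a single name could also differ by a few bases. Those of Rpl11 below overlapped by 37 bases and differed at 2 of them (capitals). Each spanned 323 bases of genome, so both also lay across an intron.
Rpl11, brightest probe (chr4:135605902-135606224, minus strand): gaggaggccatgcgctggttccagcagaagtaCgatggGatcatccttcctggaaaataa
Rpl11, other probe (chr4:135605879-135606201, minus strand): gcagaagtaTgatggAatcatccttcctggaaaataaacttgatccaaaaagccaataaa
The next 3 are the probes of Rps6 that gave opposite signs and that of Rps27a with the highest difference of all members.
Rps6, brightest probe (chr4:86500748-86500807, minus strand): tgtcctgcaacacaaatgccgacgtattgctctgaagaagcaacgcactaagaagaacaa
Rps6, other probe (chr4:86501867-86502058, minus strand, across an intron): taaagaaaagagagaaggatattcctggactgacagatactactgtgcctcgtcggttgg
Rps27a, brightest probe (chr11:29445914-29445973, minus strand): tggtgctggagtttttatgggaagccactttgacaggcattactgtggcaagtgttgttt

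No cytosolic ribosomal protein gene passed an adjusted p of 0.05 between the diets, by limma with Benjamini-Hochberg adjustment over all probes, and the smallest adjusted p among the 80 was 0.689. Over all 15233 genes 1 passed, or 0.00656%. At an unadjusted p under 0.05 there were 7 members, or 8.75%, against 7.21% of all genes, so the share was close to the background. Of these 7, 6 were higher in mHFD (3.93% of all genes) and 1 was lower (3.28% of all genes). Differences of single members ran from -0.19 for Rps4x to 0.23 for Rps27a, that is from 0.874-fold to 1.18-fold.

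Of the 80 members, 49 lay higher in mHFD and 31 lower, where 50.4% of all genes lay higher. Their median difference was 0.017, beside 0.00099 over all genes. The large subunit had a median of 0.015 with 31 of 48 genes higher, and the small subunit a median of 0.027 with 18 of 32 higher. The sign of the members' median turned under median centring in place of loess (-0.014), with the Cy5 channel alone (-0.0058), in the authors' deposited table (-0.033) and on slides 1 and 5 alone (-0.0034). No direction for the family is therefore given. The 95% interval of the difference lay within a 1.3-fold change either way for 73 of the 80 genes, and no member had groups that did not overlap (0.00656% of all genes had such groups).

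**Figure D1:**
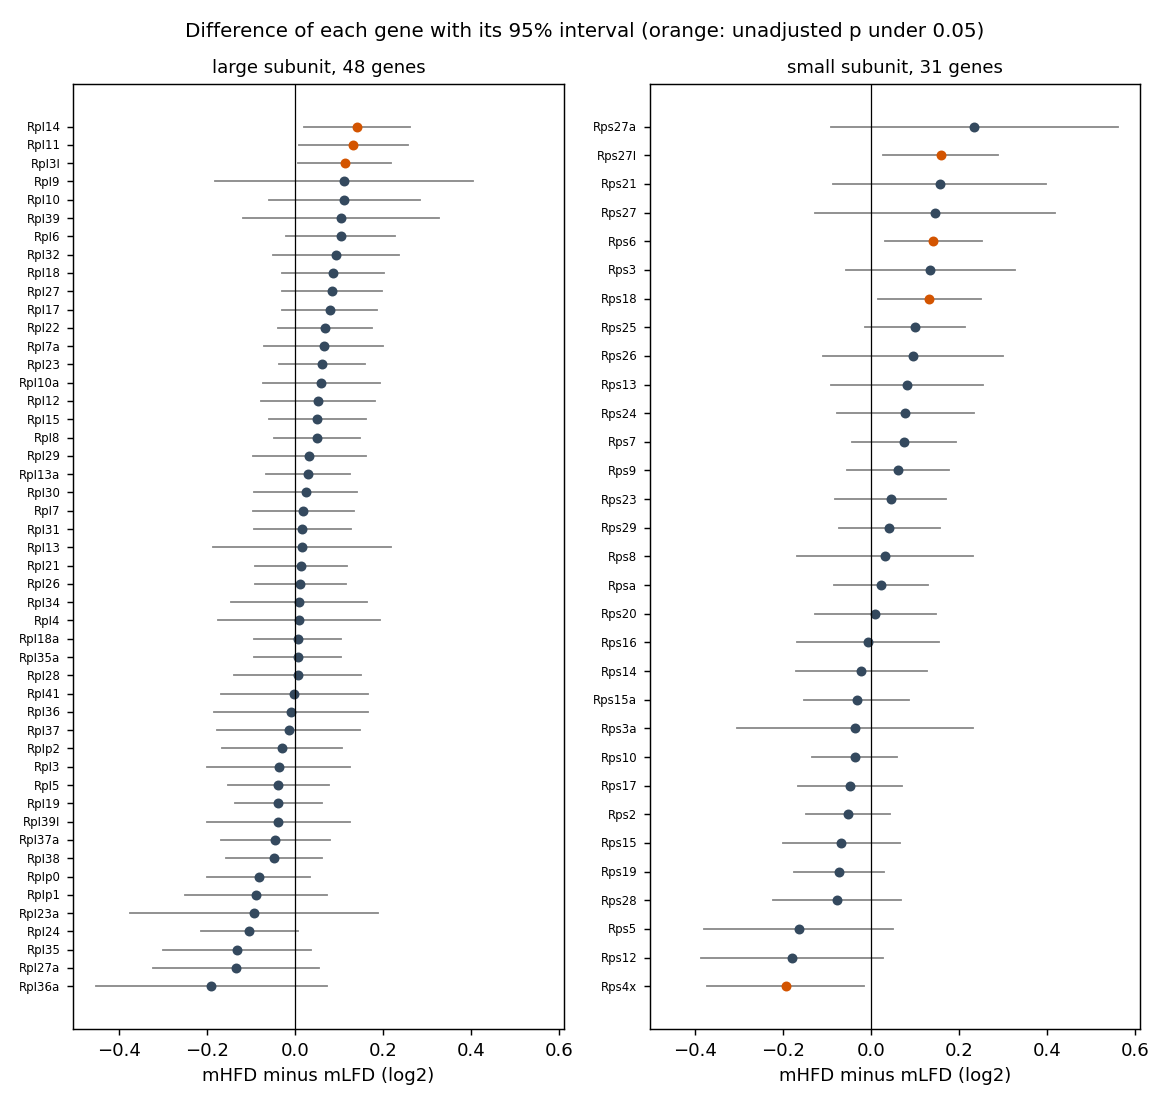
Difference between the diets (mHFD minus mLFD, log2, x axis) for 79 of the 80 genes, with 10 arrays a group less those with a spot left out; lines are 95% intervals from limma and orange points have an unadjusted p under 0.05. The points of both subunits lie between -0.19 and 0.23, and 72 of the intervals stay within a 1.3-fold change.

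The mean log ratio over the 80 genes gives 1 value a mouse. In mHFD it was lowest at -0.10, had a median of 0.033 and was highest at 0.090. In mLFD it was lowest at -0.12, had a median of -0.011 and was highest at 0.097. The groups overlapped over nearly their whole range, and 8 of 10 mHFD mice lay above the mLFD median. The group means were 0.016 ± 0.053 (SD, n = 10) and -0.0039 ± 0.065 (SD, n = 10), a difference of 0.020 that is smaller than either SD. Within slides the difference was -0.061 on slide 1, 0.11 on slide 2, 0.0045 on slide 3, 0.0072 on slide 4 and 0.038 on slide 5, so its sign was not the same on every slide.

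The array mean was set against 3 measures of the arrays, each over 20 arrays and tested by permutation with 100000 resamples. Against the probes detected in Cy5 on the array, Pearson's r was -0.018 (p = 0.937) and Spearman's rho -0.027 (p = 0.912). Against the Cy5 factor r was 0.012 (p = 0.959) and rho 0.014 (p = 0.958). Neither relation held over all arrays, and without the 2 arrays farthest from the median of the measure r was 0.030 and -0.27. Within slides, however, r was -0.61 for the number of probes and 0.62 for the Cy5 factor, so within a slide the mean was higher on arrays with a higher Cy5 factor and fewer detected probes. Between the groups the sign was opposite, with r of 0.41 in mHFD and -0.48 in mLFD for the Cy5 factor, and -0.36 and 0.38 for the number of probes. On every slide the array at place 1, always an mHFD mouse, had the highest Cy5 factor and the fewest detected probes. The relations within slides were not taken less group means, so they are bound up with place and diet. Against position on the slide r was -0.35 (p = 0.134) and rho -0.36 (p = 0.119), with r of -0.32 without the 2 farthest arrays, -0.56 in mHFD, -0.10 in mLFD and -0.38 within slides. With Benjamini-Hochberg adjustment over 4 relations, the fourth being that of the spread below, the p-values of r were 0.959, 0.959 and 0.269.

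**Figure D2:**
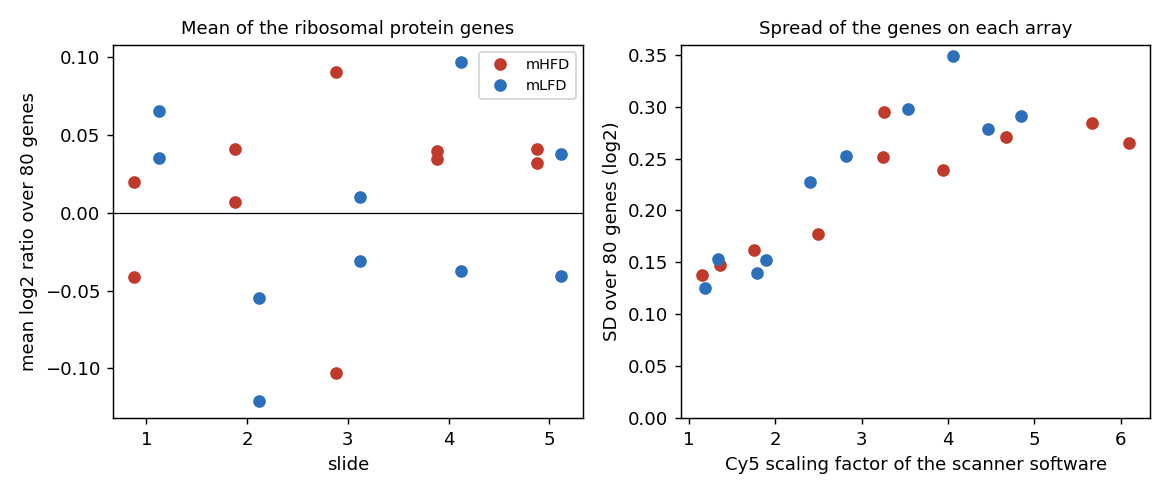
Left, mean log2 ratio to the pool over the 80 genes for each array by slide, with mHFD in red and mLFD in blue; right, SD over the 80 genes on each array against the Cy5 scaling factor. The means of both groups lie between -0.12 and 0.10, and the spread of the genes is 0.126 to 0.178 on slides 1 and 5 and 0.227 to 0.349 on slides 2 to 4.

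The SD over the 80 genes within an array ran from 0.126 to 0.349. On slide 1 its median was 0.143 with Cy5 factors of 1.15 to 1.36, and on slide 3 it was 0.288 with Cy5 factors of 3.25 to 5.67. Over 20 arrays the SD and the Cy5 factor had r = 0.82 (p = 4e-05) and rho = 0.84 (p = 3e-05) by permutation, and r = 0.89 without the 2 farthest arrays. The adjusted values were 0.00016 and 0.00012. The relation held within both groups, at 0.84 in mHFD and 0.90 in mLFD, while within slides r was 0.17. The relation therefore lies between slides. The permutation moved all 20 arrays freely, so its p-values treat arrays of 1 slide as separate. They are not p-values over the 5 slides. The SD over all genes moved in the same order, from a median of 0.183 on slide 1 to 0.275 on slide 3, so the scatter was not a matter of these genes alone. Spots flagged as uneven had to be left out for 15 of the 80 genes, 27 of the missing values being on slide 2.

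Among single members of the small subunit, Rps6 had the smallest unadjusted p. It is the subunit protein phosphorylated by S6 kinase, the usual readout of mTORC1 signalling. Its log ratio in mHFD was lowest at 0.097, had a median of 0.28 and was highest at 0.38. In mLFD it was lowest at -0.13, had a median of 0.12 and was highest at 0.30. The groups overlapped, with 9 of 10 mHFD mice above the mLFD median and 3 above the highest mLFD mouse. The difference was 0.14 (SE 0.053, limma p = 0.0148, adjusted p = 0.689), and it had the same sign on all 5 slides.

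Rps18, a protein of the head of the small subunit, lay between -0.079 and 0.36 in mHFD with a median of 0.13. In mLFD it lay between -0.20 and 0.14 with a median of 0.018. The ranges overlapped, and 4 mHFD mice lay above the highest mLFD mouse. The difference was 0.13 (SE 0.057, limma p = 0.0293, adjusted p = 0.689). Its second probe gave 0.086, also positive.

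Rps4x, the X-linked form of the small subunit protein eS4, was the member with the lowest difference. In mHFD it was lowest at -0.77, had a median of -0.20 and was highest at -0.049. In mLFD it was lowest at -0.41, had a median of -0.077 and was highest at 0.36. Of the mHFD mice, 9 of 10 lay below the mLFD median, and the group was stretched by mHFD 06 at -0.77. The difference was -0.19 (SE 0.086, limma p = 0.0345, adjusted p = 0.689), and without mHFD 06 it was -0.14 (p = 0.0745). A second probe under the same name, whose coordinates are on chromosome 3, gave 0.041.

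Rps27a encodes a fusion of ubiquitin with a small subunit protein, and had both the highest difference and the widest spread. In mHFD it was lowest at -0.60, had a median of -0.19 and was highest at 0.31. The mLFD values ran from -1.12 to 0.12 with a median of -0.26. Both groups were wide and overlapped. The difference was 0.23 (SE 0.158, limma p = 0.151), with an interval from -0.092 to 0.56, and on slides 1 and 5 alone it was -0.045. Its second probe gave -0.050. Rps12, a small subunit protein of the beak, gave -0.18 (SE 0.10, p = 0.0839), with 9 of 10 mHFD mice below the mLFD median. The second Rps12 probe gave -0.061. In the pool channel, which holds the same RNA on every array, the difference of the brightest Rps12 probe was -0.17 (limma p = 0.0343). The pool is the denominator of the log ratio, so a lower pool signal alone raises the ratio. Its part in the log ratio of Rps12 was not tested.

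Other small subunit members were closer to 0. Rpsa, the laminin receptor form of uS2, differed by 0.022 (SE 0.052), and Rps19, the gene most often mutated in Diamond-Blackfan anaemia, by -0.073 (SE 0.049). Rps19 was lower in mHFD on all 5 slides without reaching an unadjusted p under 0.05 (p = 0.155). Rps14, the brightest member in Cy5, differed by -0.022 (SE 0.071) over the 8 mHFD and 9 mLFD arrays on which its spot was kept. Rps21 lay at 0.16 (SE 0.117) and had a group SD of 0.295 in mHFD and 0.275 in mLFD.

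In the large subunit Rpl14 had the smallest unadjusted p. In mHFD it was lowest at 0.064, had a median of 0.26 and was highest at 0.53. The mLFD values ran from -0.0076 to 0.33 with a median of 0.13. The ranges overlapped and 8 of 10 mHFD mice lay above the mLFD median. The difference was 0.14 (SE 0.058, limma p = 0.0235, adjusted p = 0.689) and was positive on all 5 slides. A second probe that overlaps the first gave 0.13 (p = 0.0523), and the third, a dimmer one further along the transcript gave -0.091.

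Rpl11 and Rpl5 carry the 5S rRNA into the large subunit and, when free, bind Mdm2 and hold back the breakdown of p53. Rpl11 in mHFD was lowest at -0.065, had a median of -0.0031 and was highest at 0.27. The mLFD values ran from -0.29 to 0.18 with a median of -0.068. All 10 mHFD mice lay above the mLFD median, yet the ranges overlapped and 3 mHFD mice exceeded the highest mLFD mouse. The difference was 0.13 (SE 0.060, limma p = 0.0361, adjusted p = 0.689). The probe printed above that differs at 2 bases gave -0.0091 (SE 0.108), and the third probe gave -0.076. Rpl5 differed by -0.037 (SE 0.055), less than its SE. By the brightest probes the partners differed in sign, while the other Rpl11 probes were negative like Rpl5. No direction for the pair is therefore given.

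The stalk that recruits elongation factors is built from Rplp0 with Rplp1 and Rplp2. Rplp0 lay between -0.23 and 0.31 in mHFD and between 0.062 and 0.34 in mLFD. With 5 of 10 mHFD mice below the lowest mLFD mouse, its difference was -0.082 (SE 0.057, p = 0.164). Rplp1 differed by -0.088 (SE 0.078), negative on all 5 slides, and Rplp2 by -0.028 (SE 0.066). Rpl12, at the base of the stalk, differed by 0.053 (SE 0.062), so 3 of these 4 genes lay lower in mHFD and 1 higher by their brightest probes, and none had an unadjusted p under 0.05. Of the other Rplp0 probes 1 gave 0.021 and 1 gave -0.067, and the second Rpl12 probe gave -0.058. Rplp1 lay higher with the scanner software's log ratio (0.025) and Rplp2 with the Cy5 channel alone (0.045) and without slide 4 (0.035).

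Among the brightest large subunit genes, Rpl10, which is needed to complete the subunit, differed by 0.11 (SE 0.082). Rpl37a differed by -0.044 (SE 0.059) and Rpl37 by -0.014 (SE 0.078). Rpl9 was among the widest members, with a group SD of 0.328 in mHFD and 0.354 in mLFD, and differed by 0.11 (SE 0.141). Rpl23 was among the narrowest with 0.092 within groups and differed by 0.062 (SE 0.047).

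**Figure D3:**
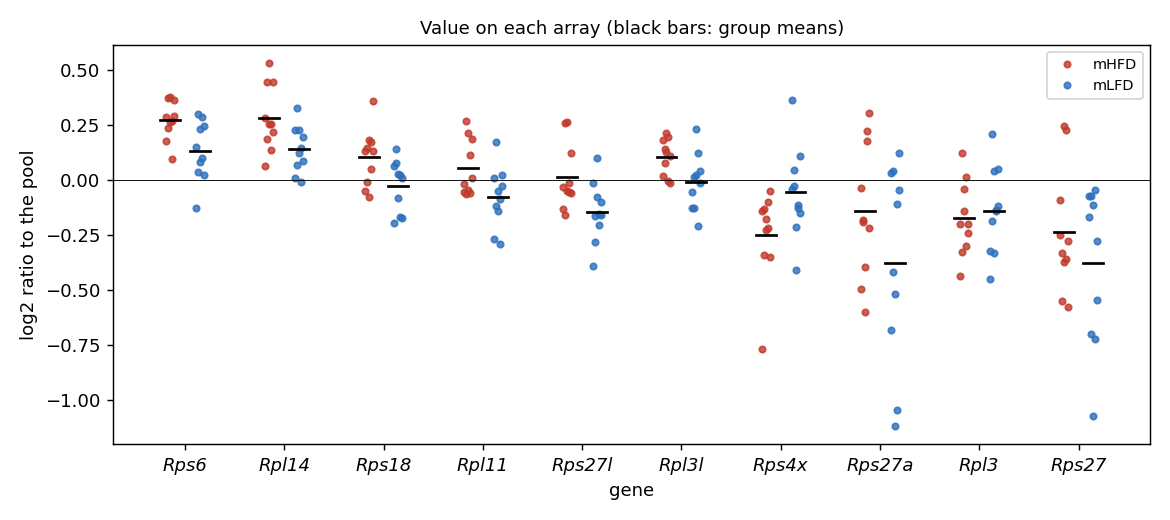
Log2 ratio to the pool (y axis) of 10 genes on each array, with mHFD in red, mLFD in blue and a black bar at each group mean. The groups overlap for each gene shown; mHFD 06 stands apart for Rps4x at -0.77, and Rps27a and Rps27 have the widest scatter.

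Paralogues were compared within an array, as the difference of their log ratios, for the 6 pairs measured. The question is whether a paralogue and its parent moved unequally between the diets; levels of different probes are not compared. Rpl3l lay between -0.013 and 0.21 in mHFD, with a median of 0.12. In mLFD it lay between -0.21 and 0.23, with a median of -0.00060. The mHFD range lay inside the mLFD range, 8 of 10 mHFD mice were above the mLFD median, and the difference was 0.11 (SE 0.051, limma p = 0.0355, adjusted p = 0.689). Rpl3 lay between -0.44 and 0.12 in mHFD and between -0.45 and 0.21 in mLFD, and differed by -0.036 (SE 0.078).

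Rpl3l minus Rpl3 was lowest at -0.020, had a median of 0.35 and was highest at 0.50 in mHFD. The mLFD values ran from -0.20 to 0.35 with a median of 0.15. The groups overlapped, with 5 mHFD mice above the highest mLFD mouse. The contrast differed by 0.15 (SE 0.081, 95% interval -0.021 to 0.32; 2-sided permutation p = 0.0802, 0.481 adjusted over 6 pairs), and was higher in mHFD on 4 of 5 slides. With the Rpl3 probe over the same stretch, printed above, it was 0.12 (permutation p = 0.114).

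Rps27l, a p53-responsive paralogue of Rps27, lay between -0.16 and 0.26 in mHFD with a median of -0.041. In mLFD it lay between -0.39 and 0.098 with a median of -0.16. The ranges overlapped and 9 of 10 mHFD mice were above the mLFD median. Its difference was 0.16 (SE 0.063, limma p = 0.0196, adjusted p = 0.689). Rps27 differed by 0.14 (SE 0.132), so the contrast of the pair was 0.014 (interval -0.34 to 0.37, permutation p = 0.938). All 4 probes named Rps27 have coordinates on chromosome 9, while RefSeq places the gene on chromosome 3.

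The other pairs had contrasts with intervals that included 0. Rpl39l minus Rpl39 differed by -0.14 (interval -0.40 to 0.12), lower in mHFD on 4 of 5 slides. It rests on the brightest Rpl39 probe (0.11), the highest of 3 that ran down to -0.14. Rpl36al minus Rpl36a differed by 0.18 (interval -0.14 to 0.51), higher on all 5 slides, with Rpl36a alone at -0.19 (SE 0.127). That Rpl36a probe was the lowest of 3, which ran up to -0.011. Rpl22l1 minus Rpl22 differed by -0.060 (interval -0.37 to 0.25), and Rpl7l1 minus Rpl7 by -0.055 (interval -0.20 to 0.091). Adjusted over the 6 pairs, the p-values of these 4 ran from 0.544 to 0.831.

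Several probes under 1 name allow the measurement to be repeated on the same arrays. Of the 80 genes 56 had more than 1 kept probe, up to 7. The differences of a gene's probes had the same sign in 24 of these genes and both signs in 32. Their range had a median of 0.11, beside a median SE of 0.063 for a single probe, and was widest at 0.28 for Rps27a. Over all 177 probes 9 had an unadjusted p under 0.05, or 5.08%, against 7.14% of all probes (0.00521% of all probes passed the adjusted threshold), and no gene had more than 1 such probe. Rpl3l and Rps27l had 1 kept probe each. Of the other 5 members at an unadjusted p under 0.05, Rps18 had probes of 1 sign, and Rps6, Rpl14, Rpl11 and Rps4x had probes of both. With the mean of all kept probes of a gene, Rpl22, Rpl27, Rpl3l, Rps18 and Rps27l were at that level, beside 7.21% of all genes. Rps6, Rpl14, Rpl11 and Rps4x then were not.

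**Figure D4:**
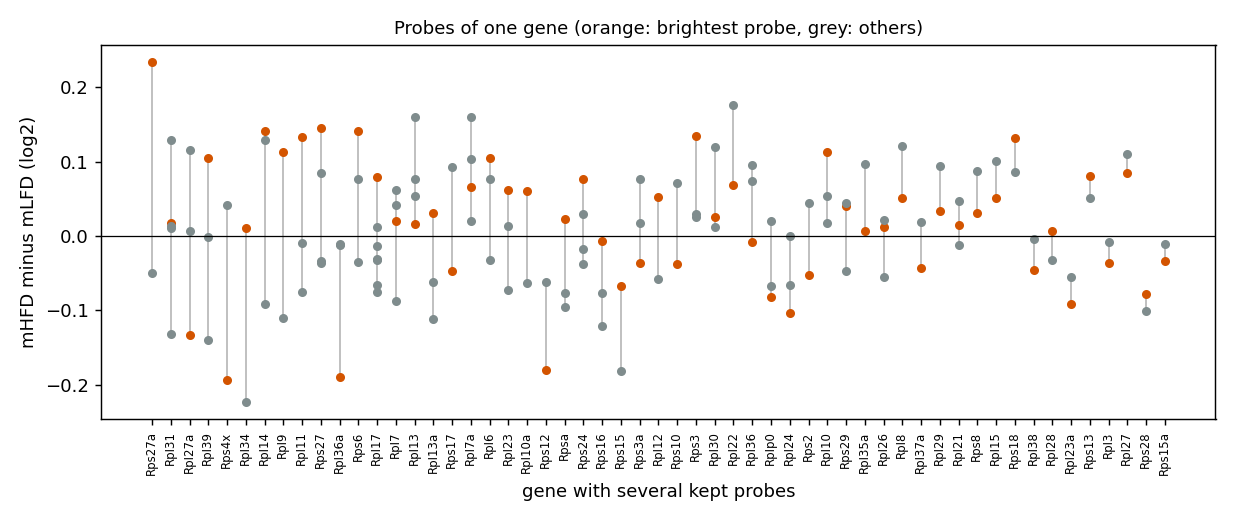
Difference between the diets (log2, y axis) of each kept probe for 55 of the 56 genes with several probes, ordered by the range; orange marks the brightest probe, grey the others. The range is widest for Rps27a at 0.28, and in 31 of those drawn the probes fall on both sides of 0.

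The probes also differ in where they lie. Of the 177 kept probes 41 spanned an intron (over 100 bases of genome), 54 held the polyadenylation signal AATAAA and 11 had coordinates on another chromosome than their gene, under the names Rpl13, Rpl36, Rps27, Rps29 and Rps4x. Outside the members, 94 probes shared a run of at least 25 identical bases with a probe of 40 members, and all 94 were well above background on at least 10 arrays. Of these, 87 had coordinates on another chromosome than the member probe. The correlation of such a probe with its member probe over 20 arrays, less group means, had a median of 0.31 and ran from -0.44 to 0.91. Of the 94, 6 had an unadjusted p under 0.05, or 6.38%, against 7.14% of all probes.

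The members moved together only in part. Over 20 arrays, less group means, Pearson's r between members had a median of 0.15 over 3160 pairs, with 64.8% of pairs above 0. Over pairs of 14877 genes measured on all arrays the median was 0.0013. Among 76 mitochondrial ribosomal protein genes it was 0.099, and among 1984 other genes at least as bright as the dimmest member after Rpl39l it was 0.0037. All of these share arrays, slides and the pool. The closest pair was Rpl27a and Rps12 at 0.96, followed by Rpl34 and Rps16 at 0.92. Rps20 had the highest correlation with the mean of the other members, 0.80, and Rpl3l the lowest of all 80, -0.29.

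Of the genes outside the members, the 5 most like their mean over the arrays were probes named on the array only by an identifier, with r from 0.74 to 0.82. Of these, 3 shared a run of at least 25 bases with a member. A probe placed on chromosome 13, with r = 0.82, shared 29 bases with a probe of Rpl37a. Its correlation with that probe, less group means, was 0.65. Another, placed on chromosome X, shared 30 bases with a probe of Rps29 and correlated with it at 0.16. The third shared 35 bases with a probe of Rpl38 and correlated with it at 0.27. Whether shared sequence bears on the likeness was not tested. The runs shared with Rpl37a and Rps29 are printed below.
Run shared with Rpl37a: gtctgagacttgcctagcctgcaataaac
Run shared with Rps29: aagttggactaagcgaccttgaatggattc

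At an unadjusted p under 0.05 lay 7.21% of all genes, 3.93% higher and 3.28% lower. Of 46 ribosome assembly genes 3 were at that level, all higher in mHFD: Lsg1 at 0.16, Gnl3 at 0.15 and Riok2 at 0.12. Their share was 6.52% and their median difference 0.0018. Of 30 regulators of ribosomal protein genes or their translation, 2 were higher at that level, Larp1 at 0.24 and Rictor, a subunit of mTORC2, at 0.16, a share of 6.67%, and the median was 0.032. Of 22 translation genes whose mRNAs carry the same tract, Eef1a1, the elongation factor that brings tRNA to the ribosome, was the 1 at that level (4.55%), lower at -0.14 (limma p = 0.0222). Of 76 mitochondrial ribosomal protein genes 4 were lower (Mrps33, Mrps23, Mrpl33 and Mrpl36, from -0.14 to -0.21) and none higher, a share of 5.26%, with a median of -0.0045. No gene of these lists passed an adjusted p of 0.05, and the lists were not recomputed under other settings. Fau, a ubiquitin-like fusion outside the naming rule, differed by 0.0023.

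The Cy3 channel holds the same pool on every array, so a difference there is not one between the mice. By limma 3 of 80 members had an unadjusted p under 0.05 there, Rpl7a, Rpl8 and Rps12, against 8.22% of all genes, and none passed after adjustment, as for all genes. The members' differences there ran from -0.38 to 0.16. The low end was set by Rpsa (-0.38, SE 0.21) and Rps21 (-0.38, SE 0.23), and the next lowest was Rpl7a at -0.19. These are single-channel values scaled to the 75th percentile of each array, without loess. Their span is therefore not compared with that of the log ratios.

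**Figure D5:**
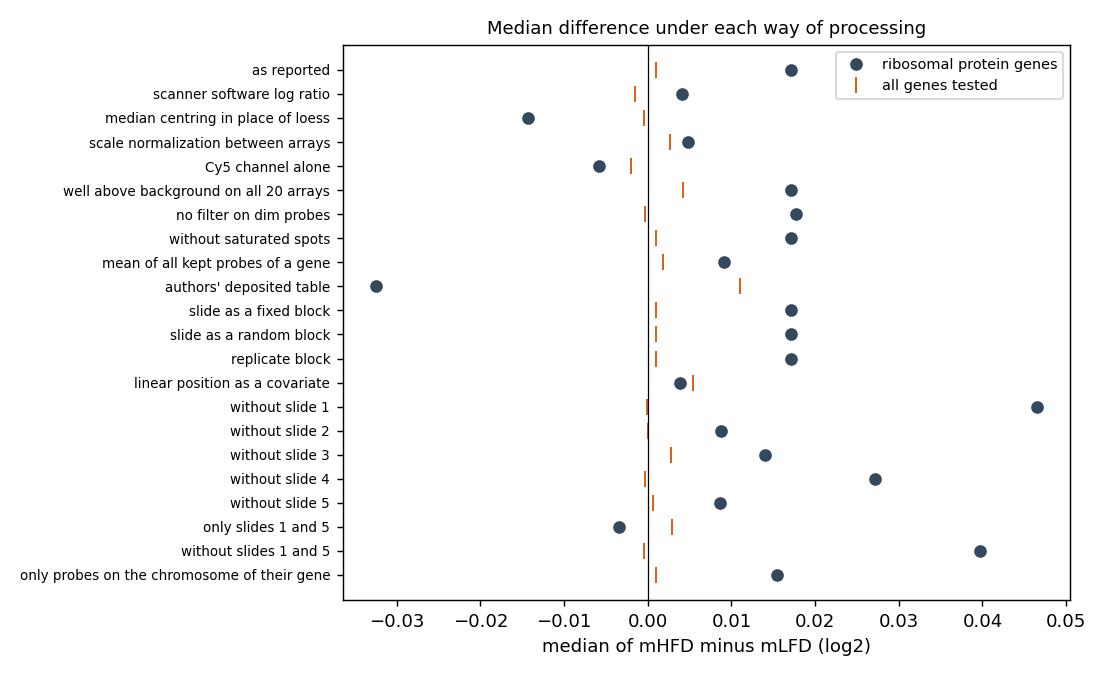
Median difference between the diets (log2, x axis) over the ribosomal protein genes (dark points) and over all genes tested (orange ticks) under each way of processing and without each slide. The ribosomal medians lie between -0.033 and 0.047, on both sides of 0.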

How the data were processed

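The authors deposited scanner files of Agilent Feature Extraction 10.7.3.1 (per the submitters' processing notes and the file headers) with signal intensity per spot, which were used as intensity values, and a table of log2 values. Per the file headers, the deposited log10 ratio of Cy5 over Cy3 was made by that software from its background-subtracted, dye-normalised signals and was used as an alternative. The deposited log2 table names no scale or direction: its 20 columns have a median of 7.54, and its differences between arrays correlated with those of the log ratios at 0.79. Background was removed from the mean signals by normexp (offset 50), followed by loess within each array, in limma 3.58.1 (R 4.3.3). Control spots and uneven spots had weight 0, uneven spots were dropped, and spots of a probe were averaged. The filter on dim probes needed 10 arrays with the Cy5 spot marked above background; the brightest probe stood for a gene. No member spot was saturated. Group differences were fitted with lmFit and eBayes over 19206 probes with Benjamini-Hochberg adjustment at 0.05. The labels give replicate numbers, which were checked for pairing. In data simulated for this comparison (18794 probes) a log2 difference of 0.3 was called in 64.2% of 67 changed probes, 0.5 in 88.1% and 1 in 98.5%. Among the unchanged probes 15 were called. The simulated noise was independent between arrays and probes, without slides or littermates, so these rates need not hold for the real arrays. No difference under 0.3 was simulated, so they give no rate for differences as small as those of the members. Precision is limited by there being 10 arrays a group.

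The members, gene lists and tests were chosen with earlier results of these data known. Named genes were members at an unadjusted p under 0.05, the 3 highest and 3 lowest differences, the 4 brightest, the 2 widest and 2 narrowest, paralogue pairs and fixed members by role; list genes at that p, up to 4 a list; and the 5 genes most like the mean. Of the 186 probes, 171 had an accession that matched RefSeq and 2 of these a symbol other than that on the array. Alternatives were other normalisations, channels, filters, probe summaries, blocks for slide and replicate, position, and leaving out arrays or slides. Paralogue contrasts were permuted 100000 times, or 2000 times with slide or position in the fit. Values of some genes that these rules name are not reported here.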

Additional observations from a re-analysis of the deposited data

Results flagged for a closer look

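In 4 of 78 groups of 10 arrays looked at, the lowest or highest array lay far from the rest by Dixon's test; chance alone gives about 1 in 20. Rps4x was -0.77 on mHFD 06, where the other mHFD arrays ran from -0.35 to -0.049. Rpl7 was -0.24 on the same array, against 0.038 to 0.20. Rpl36al minus Rpl36a was 0.86 on it, against 0.13 to 0.42. Rplp2 was 0.44 on mHFD 03, against -0.24 to 0.032. The causes were not tested.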

How the results depend on the processing

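No member passed an adjusted p of 0.05 under any of the 41 settings run for the counts, with the count at 0 when single arrays were left out, and none of the 36 tested values (30 named genes and 6 contrasts) did. The count at an unadjusted p under 0.05 (7) was 0 with the scanner software's log ratio, with median centring and in the authors' deposited table, 1 with linear position as a covariate, and 2 with scale normalization or the Cy5 channel alone. The share of all genes at that level moved too, from 7.21% to 5.69%, 0.505%, 3.07%, 5%, 5.92% and 7.14% in that order. With position the member at that level was Rpl35, which is not among the 7. With scale normalization they were Rpl24 and Rps27l, of which only Rps27l is among the 7. With the Cy5 channel alone they were Rpl9 and Rps12, neither of them among the 7. The members' count was 3 without slide 3, 4 without slide 4 and 4 without slide 5, beside 5.63%, 5.83% and 6.61% of all genes. Leaving out 1 array gave 3 to 12. It was 12 without mLFD 03 (10% of all genes) and 3 without mLFD 06 (5.57%). It was 4 without mHFD 07 (5.87%), mLFD 02 (5.65%) or mLFD 04 (5.95%). Chosen after seeing the data, slides 1 and 5 alone gave 1 (4.67% of all genes) and the other 3 slides gave 4 (4.84%). The cause of these changes was not tested. The members' median ran from -0.033 to 0.047 and the difference of array means from -0.033 to 0.041, within the SD of 0.059 between arrays of a group. The 30 named genes changed sign in 60 of 1229 values. The genes at that p other than Rps4x kept a positive sign and Rps4x a negative one. Rpl3l minus Rpl3 ran from 0.083 to 0.21, 0.11 to 0.18 without 1 array, and had an unadjusted p under 0.05 in 5 of 38 settings. Same-numbered arrays correlated between -0.0099 and 0.35, over 0.1 in 8 of 10 pairs, and 3 mHFD and 4 mLFD arrays correlated best with their own number. The numbers are therefore not taken as pairs. Same-numbered mHFD and mLFD arrays did lie next to each other on the same slide. With slide as a fixed block Rps25 joined the 7 members at an unadjusted p under 0.05, beside 9.12% of all genes. With slide as a random block the 7 were the same, beside 8.65% of all genes. With a replicate block the count was 9, beside 10.6% of all genes, and the members' median was 0.017. These 9 were Rpl11, Rpl14, Rpl24, Rpl32, Rps18, Rps25, Rps27l, Rps3 and Rps6, without Rps4x (limma p = 0.0652) and Rpl3l (limma p = 0.0526). The random slide block was not run for the contrasts.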
